A study of Arabidopsis thaliana with 6 samples.

Results

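The 10 genes described here encode the morning clock factors CCA1 and LHY and the REVEILLE (RVE) proteins 1 to 8 of Arabidopsis thaliana, all of which carry a single MYB repeat. They were chosen by name, as a gene family and not by their values, though with earlier results of these data known. Of the 10 genes, 9 were matched among the 21430 probe sets used. RVE7 (AT1G18330_at), also known as EPR1, was not analysed here. Leaves came from plants grown in soil under short days for 6 weeks and then spent 24 h at 100 ppm CO2 (low CO2, 3 arrays) or remained at 400 ppm (ambient CO2, 3 arrays). Each array holds RNA pooled over 4 to 5 plants, and neither the plants' accession nor the time of day of harvest is given in the sources used here. The series' title places the comparison under photorespiratory stress, the state in which Rubisco takes up more oxygen because CO2 is scarce.

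The plant circadian clock is a set of transcription factors that switch each other on and off in turn over the day. CCA1 and LHY peak around dawn and repress genes expressed later in the day, many of which carry the evening element, a short promoter motif. The REVEILLE proteins bind the same motif. RVE8 and its close relatives RVE4 and RVE6 act as activators of evening genes, together with the LNK coactivators, while RVE1, RVE2 and RVE7 form a separate branch and connect the clock to growth and other outputs. Sugar made by photosynthesis is known as one of the inputs that set the phase of this clock.

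Values are log2 expression levels, so that a difference of 1 is a 2-fold change. A probe set was tested if 3 or more of the 6 arrays stood at log2 4 or higher, which held for 16210. Of the 9 clock MYB genes with a row, 8 were tested and reached that level on all 6 arrays, while RVE2 reached it on 2. Of 6 leaf marker genes, 4 had a row, among them RCA. They stood between log2 13.58 and 14.16 on low CO2 arrays and between 13.55 and 14.20 on ambient CO2 arrays. Flower and seed markers lay at 3.15 to 4.06 and 3.25 to 4.19, and 5 of 7 root markers at 3.39 to 4.87 and 3.55 to 5.00 on low CO2 and ambient CO2 arrays, at the weak end of the signal. The other root genes were above the array medians of 6.07 to 6.11, with PYK10 at 8.77 to 9.81 and SCR at 7.89 to 8.15 over the 6 arrays. In pooled leaves, fewer cells that express a gene and less RNA per cell cannot be told apart. Low CO2 replicate 1 stood apart from its group. Across tested probe sets it correlated with the ambient CO2 arrays at r = 0.980 to 0.986 but with low CO2 replicates 2 and 3 at 0.962 and 0.947. Results of the tested clock MYB genes are therefore also given without this array. Since it was left out because it stood apart, the spread that remains is narrow and p values without it are likely too small. As it lay near the ambient CO2 arrays, leaving it out also enlarged most differences of the tested clock MYB genes. RVE1 went from 2.60 to 3.39 in log2 difference, while RVE5 and RVE8 went the other way. Differences without this array are therefore likely too large as well.

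In leaves at 100 ppm CO2, 7 of the 8 tested clock MYB genes had a higher mean and 1 a lower mean than in ambient air. RVE1 was 6.08-fold higher, and RVE3, RVE4 and RVE6 were 1.86-fold to 2.43-fold higher. RVE5 and CCA1 differed by less, RVE8 differed little, and LHY, the close relative of CCA1, had the lower mean in low CO2. With all 6 arrays, 0 of the 8 tested genes passed limma at an adjusted p under 0.05, as did 0 of all tested probe sets (0%). At an unadjusted p under 0.05, 6 of the 8 were higher and 0 lower, where 13.5% of all tested probe sets were higher and 12.6% lower. In 5 of the 8 every low CO2 array lay above every ambient CO2 array, against 14.6% of all tested probe sets, and in 0 did every low CO2 array lie below, against 14.3%. The median log2 difference over the 8 genes was 0.72, against -0.03 over all tested probe sets. Without low CO2 replicate 1, limma called 5 of the 8 higher and 0 lower, against 16.8% and 18.5% of all tested probe sets.

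**Figure D1:**
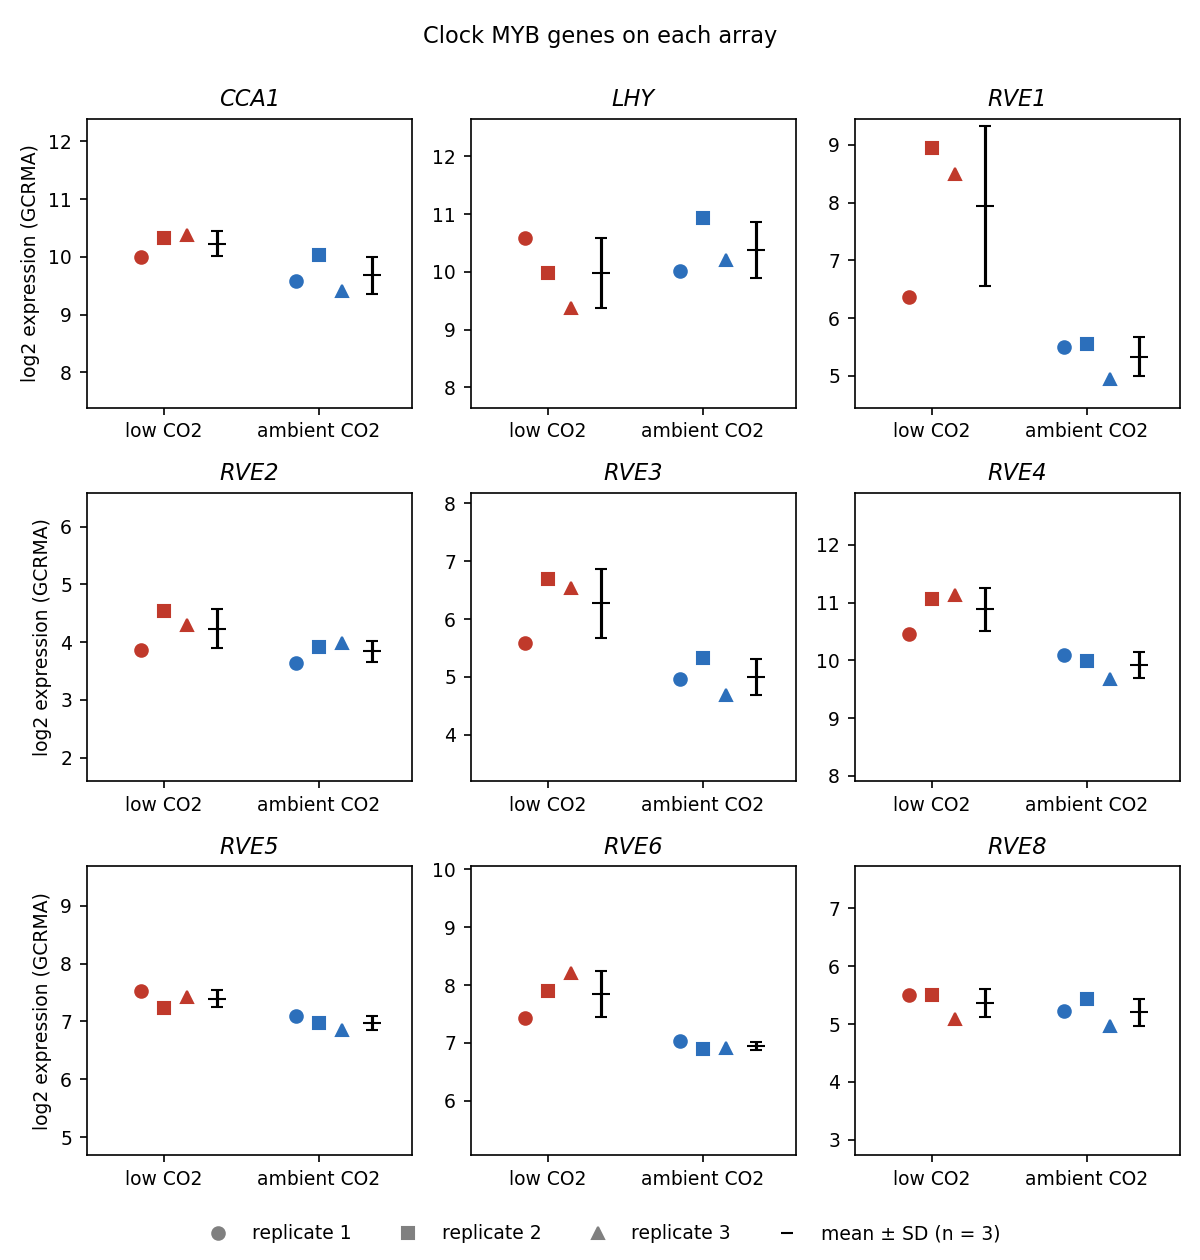
Log2 expression (y axis, the same span of 5 log2 units in each panel) of the 9 clock MYB genes with a row, on the 3 low CO2 arrays (red, left) and the 3 ambient CO2 arrays (blue, right), with a symbol per replicate and the mean ± SD in black. RVE1, RVE3, RVE4, RVE5 and RVE6 show no overlap between the groups, and LHY is lowest on low CO2 replicate 3.

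CCA1 (AT2G46830_at), a repressor of evening genes at dawn, had log2 values of 9.99, 10.33 and 10.37 in low CO2 replicates 1, 2 and 3, against 9.59, 10.04 and 9.41 in ambient CO2 replicates 1, 2 and 3. The groups overlapped, since ambient replicate 2 was slightly above low CO2 replicate 1. The means were 10.23 ± 0.21 in low CO2 and 9.68 ± 0.32 in ambient CO2 (SD, n = 3 each), a log2 difference of 0.55 with a 95% interval of 0.09 to 1.01 (limma adjusted p = 0.151). When low CO2 replicate 1 was left out CCA1 passed, with a log2 rise of 0.67 (limma adjusted p = 0.0309).

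LHY (AT1G01060_at), which shares the dawn phase and many targets of CCA1, had values of 10.59, 9.98 and 9.37 in low CO2 replicates 1 to 3, against 10.01, 10.93 and 10.20 in ambient CO2. Low CO2 replicates 2 and 3 lay below all 3 ambient arrays, while replicate 1 lay among them. The mean log2 difference was -0.40 (95% interval -1.25 to 0.45, limma adjusted p = 0.493). Leaving out low CO2 replicate 1 made it -0.71 (adjusted p = 0.108 by limma), so that LHY passed in neither fit. The difference shrank to -0.09 without low CO2 replicate 3 and to -0.12 without ambient CO2 replicate 2. The interval allows anything between a 0.42-fold and a 1.37-fold level.

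RVE1 (AT5G17300_at), a factor known to link the clock to auxin synthesis and hypocotyl growth, showed the greatest difference of the 8. Its values were 6.37, 8.95 and 8.50 in low CO2 replicates 1 to 3, against 5.50, 5.55 and 4.95 in ambient CO2. Every low CO2 array lay above every ambient array, although replicate 1 lay much closer to the ambient arrays than the other two did. The means were 7.94 ± 1.38 in low CO2 and 5.33 ± 0.33 in ambient CO2 (SD, n = 3 each), a log2 difference of 2.6 (SE 0.63, 95% interval 1.10 to 4.11, limma adjusted p = 0.12). Only 0.352% of tested probe sets had a larger difference in the same direction, which put RVE1 at rank 58. Without low CO2 replicate 1 the log2 difference of RVE1 rose to 3.39, or 10.5-fold, and passed limma (adjusted p = 0.00029). Leaving out single arrays moved its log2 difference between 2.1 and 3.39.

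RVE2 (AT5G37260_at), also called CIRCADIAN 1, belongs to the same branch as RVE1 and was weakly detected. It had values of 3.87, 4.54 and 4.30 in low CO2 replicates 1 to 3, against 3.64, 3.91 and 3.98 in ambient CO2. Low CO2 replicates 2 and 3 were the highest of the 6 and replicate 1 lay among the ambient arrays. RVE2 fell below the filter, and in a fit without a filter its log2 difference was 0.40 (SE 0.19, limma adjusted p = 0.276).

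**Figure D2:**
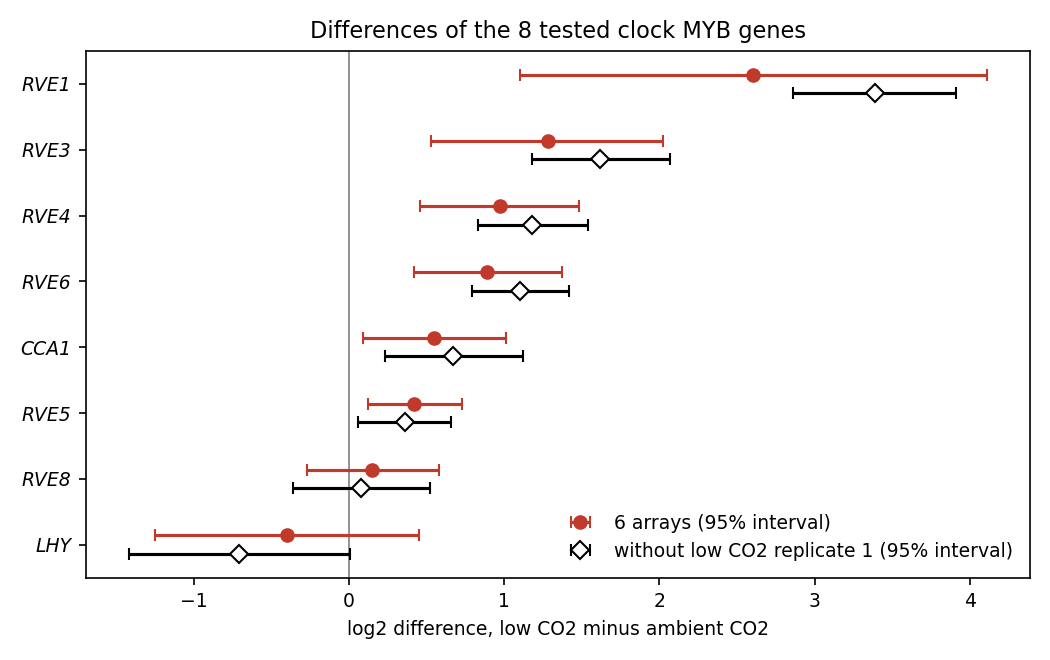
Log2 difference, low CO2 minus ambient CO2 (x axis), of the 8 tested genes with 95% intervals from limma, for all 6 arrays (filled circles) and without low CO2 replicate 1 (open diamonds). RVE1 stands at 2.6 and 3.39, and the intervals of RVE8 and LHY with all 6 arrays include 0.

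RVE3, RVE4, RVE5, RVE6 and RVE8 form the RVE8 branch, with mean log2 differences between 0.15 and 1.28, and differences between these genes were not tested. RVE4 (AT5G02840_at), an activator that shares functions with RVE8, had values of 10.46, 11.06 and 11.14 in low CO2 replicates 1 to 3, against 10.10, 9.99 and 9.67 in ambient CO2. The groups did not overlap, and the mean was 1.96-fold higher in low CO2 (log2 difference 0.97, SE 0.21, limma adjusted p = 0.118). RVE6 (AT5G52660_at), the other activator of this kind, had 7.43, 7.89 and 8.21 in low CO2, against 7.03, 6.90 and 6.91 in ambient CO2. Its ambient arrays lay close together, with an SD of 0.07, and all low CO2 arrays lay above them. The mean of RVE6 was 1.86-fold higher (log2 difference 0.89, SE 0.20, limma adjusted p = 0.118). Without low CO2 replicate 1, RVE4 rose by a log2 value of 1.18 and RVE6 by 1.10 (limma adjusted p = 0.0024 and 0.00208).

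RVE8 (AT3G09600_at), the founding member of the branch, had values of 5.50, 5.50 and 5.08 in low CO2 replicates 1 to 3, against 5.22, 5.43 and 4.96 in ambient CO2. The groups overlapped, and within each group replicate 3 was the lowest. The log2 difference was 0.15 with a 95% interval of -0.27 to 0.58 (limma adjusted p = 0.596), and 0.08 with low CO2 replicate 1 left out (limma adjusted p = 0.755). The interval reaches up to a 1.49-fold higher level and overlaps those of RVE4 and RVE6, which start at 1.38-fold and 1.33-fold. Whether RVE8 differs from RVE4 or RVE6 in its response was not tested.

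RVE3 (AT1G01520_at), known as ASG4 from a seed germination phenotype, had values of 5.59, 6.69 and 6.54 in low CO2 replicates 1 to 3, against 4.97, 5.32 and 4.69 in ambient CO2. The groups did not overlap, and the mean was 2.43-fold higher in low CO2 (log2 difference 1.28, SE 0.31, limma adjusted p = 0.121). Leaving out low CO2 replicate 1 gave a log2 rise of 1.62 in RVE3 (limma adjusted p = 0.00191). RVE5 (AT4G01280_at) had 7.52, 7.24 and 7.43 in low CO2, against 7.10, 6.97 and 6.85 in ambient CO2. In RVE5, unlike the other 4 genes without overlap, low CO2 replicate 1 was the highest array. Its log2 difference was 0.42 (SE 0.13, limma adjusted p = 0.136) and 0.36 without that array (limma adjusted p = 0.0647), so that RVE5 passed in neither fit.

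**Figure D3:**
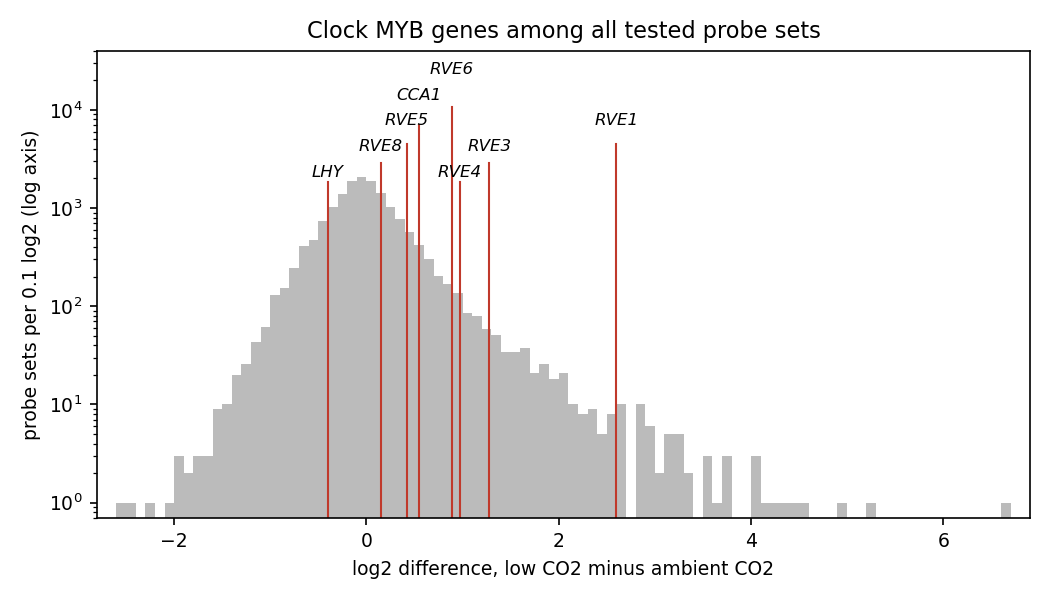
Number of tested probe sets (y axis, log scale) by log2 difference, low CO2 minus ambient CO2, in steps of 0.1 (x axis), with the 8 tested clock MYB genes as red lines. RVE1 lies in the thin upper tail, RVE3, RVE4 and RVE6 on its slope, and RVE8, RVE5, CCA1 and LHY within the bulk.

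The genes with a higher mean in low CO2 differed in where low CO2 replicate 1 lay. On low CO2 replicate 1 the excess over the ambient mean was 30.6% of the mean excess on replicates 2 and 3 for RVE1, 36.5% for RVE3, 43.4% for RVE6, 45.9% for RVE4 and 46.5% for CCA1. For RVE5 it was 153%, and for RVE8, whose mean differed little, 359%. Patterns over the 6 arrays were compared by the root mean square difference of log2 values after centring each gene on its own mean, over the 28 pairs of tested genes. RVE4 and RVE6 were the most alike pair, with a difference of 0.132. LHY and RVE1 were the least alike, at 1.88, and CCA1 lay nearer to RVE5 (0.268) and RVE4 (0.28) than to LHY (0.681). This measure depends on the size of a response as well as its shape.

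By the same measure, the 3 nearest of all tested probe sets were found for each gene, and those with a symbol in the RefSeq gene table are named here. For RVE1 they included BCS1, also called OM66, a protein of the outer mitochondrial membrane (0.278), with 6.10, 8.27 and 8.17 in low CO2 against 4.80, 4.45 and 4.47 in ambient CO2. For RVE3 they were the lectin receptor kinase gene LECRKA4.1 (0.0837), the fucosyltransferase gene FUT4 (0.108) and SIGE, also called SIG5, a sigma factor of chloroplast transcription (0.118). RVE4 had CP12-2, a small regulator of Calvin-Benson cycle enzymes, among its nearest (0.0662), with values of 12.02, 12.52 and 12.55 in low CO2 against 11.65, 11.42 and 11.25 in ambient CO2. RVE6 was nearest to the immune kinase gene BIK1 (0.0438), RVE5 to SUVH9 (0.0334), a gene of DNA methylation, with the zinc finger gene ZF1 (0.0537) also near, and CCA1 had MMZ2, a ubiquitin E2 variant, among its nearest (0.0815). LHY lay near CRK12, a receptor kinase gene (0.109), and NRT1.5, a nitrate transporter gene (0.12), and RVE8 near NDT1, an NAD transporter gene (0.0872), SPA2, a repressor of light signalling (0.0927), and ATSYTF (0.0932). The other clock MYB genes were not among the 3 nearest of any of the 8.

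Other parts of the clock were compared from 6 lists of 43 genes, of which 39 had a row and 34 were tested. By limma 0 of the 34 passed with all 6 arrays, and in low CO2 26 had a higher and 8 a lower mean, the median of the log2 differences being 0.22. Over all tested probe sets 7492 of 16210 had a higher mean and the median was -0.03. At an unadjusted p under 0.05, 8 were higher and 2 lower, against 13.5% and 12.6% of all tested probe sets, and without low CO2 replicate 1 limma called 9 higher and 1 lower, against 16.8% and 18.5% of all tested probe sets.

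The LNK coactivators, with which RVE4, RVE6 and RVE8 work, had higher means in low CO2. The log2 differences were 0.08 for LNK1, 0.36 for LNK2, 0.27 for LNK3 and 0.07 for LNK4, with SEs of 0.11 to 0.18, and 0 of 4 passed in either fit. The groups of LNK2 did not overlap, by a narrow margin, at 10.30, 10.75 and 10.39 in low CO2 against 10.29, 10.25 and 9.82 in ambient CO2.

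Among the pseudo-response regulators, repressors of CCA1 and LHY that are expressed in turn from morning to night, 4 of 5 had a row and 3 were tested. PRR7 had 9.80, 10.27 and 10.48 in low CO2 against 9.67, 9.52 and 9.55 in ambient CO2 (log2 difference 0.61, limma adjusted p = 0.136). TOC1, an evening member and a known target of both CCA1 and RVE8, had 5.94, 6.27 and 6.81 in low CO2 against 5.68, 5.57 and 5.49 in ambient CO2 (log2 difference 0.76, limma adjusted p = 0.134). Both rose without low CO2 replicate 1, by log2 values of 0.80 and 0.96 (limma adjusted p = 0.00407 and 0.00695). PRR3 differed by 0.23 (limma adjusted p = 0.468), and by 0.38 without low CO2 replicate 1, where it did not pass (limma adjusted p = 0.12). PRR5, another target of RVE8, fell below the filter and rests largely on 1 array: it had 3.94, 4.83 and 7.05 in low CO2 replicates 1 to 3, against 3.72, 3.87 and 3.94 in ambient CO2.

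In the evening complex, which represses growth and clock genes at night, ELF3 was the tested member. It had 5.19, 5.55 and 6.46 in low CO2 against 4.91, 5.33 and 4.97 in ambient CO2 (log2 difference 0.66, limma adjusted p = 0.231), and it rose by 0.93 without low CO2 replicate 1 (limma adjusted p = 0.0342) but differed by 0.30 without low CO2 replicate 3. ELF4 lay between 3.59 and 3.82 on all 6 arrays and was not tested. GI, an evening protein that stabilises the F-box protein ZTL, had 7.18, 8.12 and 8.98 in low CO2 against 6.39, 7.78 and 6.87 in ambient CO2. The groups of GI overlapped, with a log2 difference of 1.08 (SE 0.51, limma adjusted p = 0.227) that became 1.54 and passed when low CO2 replicate 1 was left out (limma adjusted p = 0.0283), but was 0.64 without low CO2 replicate 3. The light-sensing F-box protein genes LKP2 and ZTL differed by 0.34 and 0.24 (limma adjusted p = 0.136 and 0.254), and LKP2 rose by 0.39 without low CO2 replicate 1 (limma adjusted p = 0.0255). ZTL differed by 0.30 without that array and did not pass (limma adjusted p = 0.105).

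**Figure D4:**
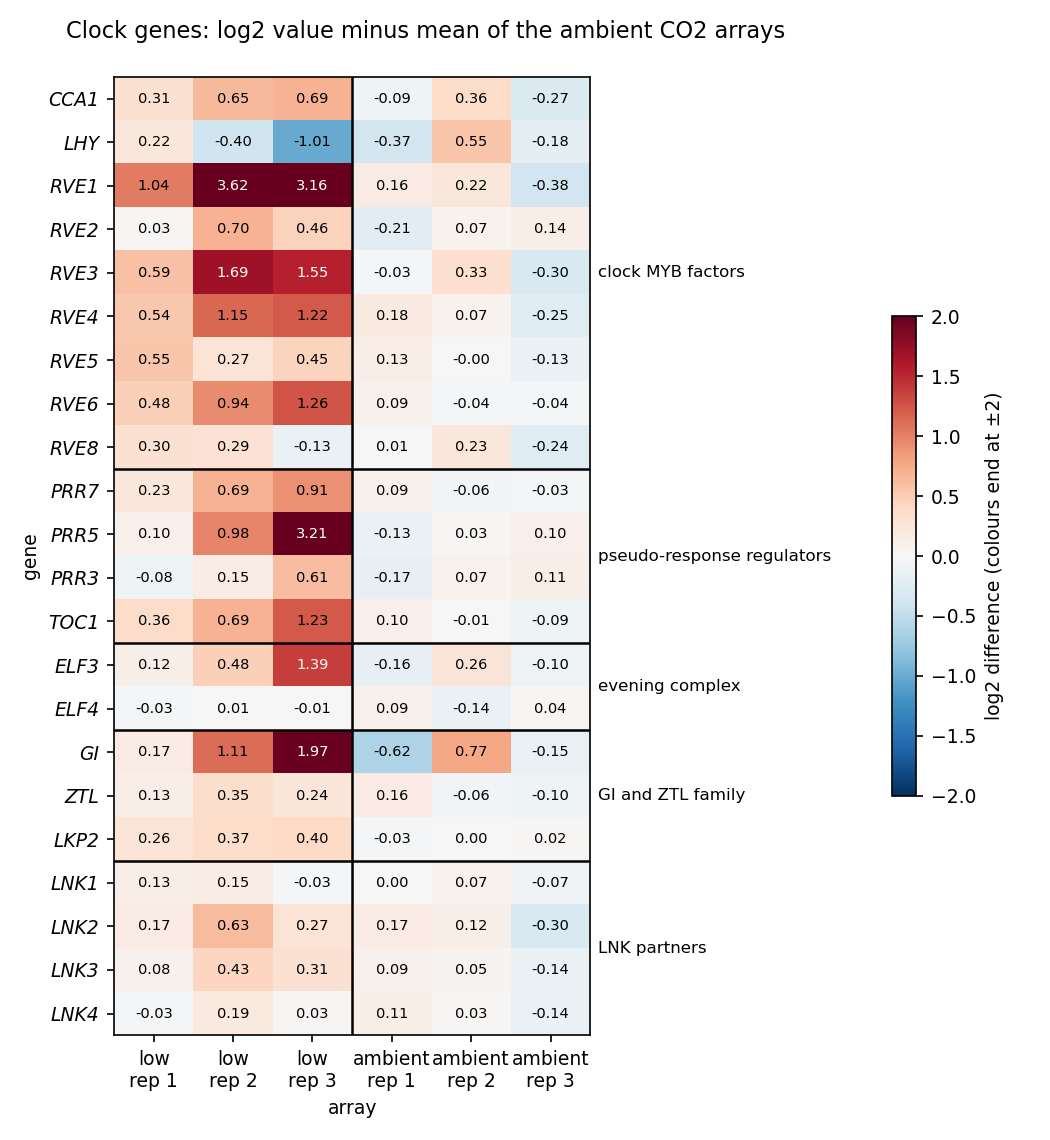
Log2 value of each gene shown (lines, in groups) minus its mean over the ambient CO2 arrays, on each array (columns, low CO2 left, ambient CO2 right). Shown are the genes with a row among the clock MYB genes, pseudo-response regulators, evening complex, GI and ZTL family and LNK genes. Other clock regulators and clock outputs are not shown. Red is higher and blue lower, with colours that end at 2 in either direction. Low CO2 replicate 3 holds the highest values of CCA1, RVE4, RVE6, PRR7, PRR5, TOC1, ELF3 and GI and the lowest of LHY.

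Of 9 other clock regulators, 0 passed with all 6 arrays, 2 were higher and 1 lower at an unadjusted p under 0.05, and 2 were called higher and 1 lower without low CO2 replicate 1. In a list of 9 these counts lie near the shares over all tested probe sets, 13.5% and 12.6% unadjusted and 16.8% and 18.5% without that array. CHE, a TCP factor that represses CCA1, had 9.80, 9.32 and 9.04 in low CO2 against 10.37, 9.80 and 9.97 in ambient CO2 (log2 difference -0.66, limma adjusted p = 0.152). With low CO2 replicate 1 left out CHE fell by 0.87 on the log2 scale, at a limma adjusted p of 0.0131. HY5, a light-signalling factor that activates clock genes, had 5.59, 6.61 and 6.43 in low CO2 against 5.30, 5.64 and 5.31 in ambient CO2. Its log2 difference was 0.79 (limma adjusted p = 0.147), and it rose by 1.11 without low CO2 replicate 1 (limma adjusted p = 0.00261). TIC, a regulator needed for clock function around dawn, differed by 0.35 and FHY3, an activator in phytochrome signalling, by 0.25 (limma adjusted p = 0.173 and 0.225). TIC rose by 0.47 with low CO2 replicate 1 left out (limma adjusted p = 0.0162), while FHY3 then differed by 0.31 and did not pass (limma adjusted p = 0.0658).

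Of 17 clock output genes, 14 were tested, and 7 had a higher and 7 a lower mean in low CO2. Their median log2 difference lay within 0.01 of 0, and 0 passed with all 6 arrays. Without low CO2 replicate 1 limma called 2 of the 14 higher and 0 lower, against 16.8% and 18.5% of all tested probe sets. CDF2, a DOF repressor of flowering genes, had 5.91, 7.30 and 6.96 in low CO2 against 5.66, 5.26 and 5.31 in ambient CO2 (log2 difference 1.32, limma adjusted p = 0.129), and it rose by 1.73 without low CO2 replicate 1 (limma adjusted p = 0.00119). CAT3, a catalase gene with an evening peak, differed by 0.47 (limma adjusted p = 0.142) and rose by 0.59 without that array (limma adjusted p = 0.0152). COR27, a cold- and clock-regulated gene and target of RVE8, fell below the filter, with 3.84, 5.09 and 5.59 in low CO2 against 3.71, 3.77 and 3.57 in ambient CO2, while COR28 stayed between 2.99 and 3.48 on all arrays. PORA and YUC8, both reported as targets of RVE1, had lower means in low CO2. PORA had 5.69, 5.79 and 6.07 against 6.13, 6.23 and 6.64 in ambient CO2 (log2 difference -0.48, limma adjusted p = 0.157). Without low CO2 replicate 1 PORA differed by -0.40 and did not pass (limma adjusted p = 0.122). YUC8, an auxin synthesis gene, had 4.32, 3.90 and 3.75 in low CO2 against 5.29, 4.16 and 4.41 in ambient CO2. These groups overlapped and most values lay near the log2 4 level of the filter. The log2 difference of YUC8 was -0.63 (limma adjusted p = 0.237), and it ran from -0.86 to -0.29 when single arrays were left out. BBX18, a B-box protein gene, differed by 0.58 (limma adjusted p = 0.184) with overlapping groups, and by 0.51 without low CO2 replicate 1, where it did not pass (limma adjusted p = 0.165).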

How the data were processed

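The values the authors deposited are log2 expression levels from Affymetrix arrays, processed with GCRMA per the submitters' processing notes. This method estimates background from probe sequence and normalizes between arrays, which draws weak signals to a common floor. The log base was read from the values, which run from 2.62 to 14.20. Probe sets carry locus names, the sources used here give no build, and no coordinates or sequences are printed. The names of RVE5 and RVE6 are those of the family. The 6 arrays, 3 per group, limit the precision of every value, and the pools are not stated to come from separate growth batches, so p values measure the spread between these pools.

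Probe sets with 3 or more arrays at log2 4 or higher were tested in limma 3.58.1 (R 4.3.3), low CO2 minus ambient CO2, with lmFit and eBayes, 2-sided, with Benjamini-Hochberg adjustment over all 16210 tested probe sets. The fit was tested on simulated data. Alternatives were no filter, a floor of log2 5, trend and robust eBayes, quantile normalization, median centring, array weights, a replicate term and each array left out. The genes were chosen with earlier results of these data known. Named were all family genes with a row, in each clock list the 4 genes with the smallest p, the LNK genes, TOC1, PRR5, GI, ELF4, COR27 and COR28, and the 3 nearest patterns per gene. YUC8, GRP7, PYK10 and SCR were named after their values were seen. Figures were drawn with matplotlib 3.10.9.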

Additional observations from a re-analysis of the deposited data

How the results depend on the processing

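All 104 values of the 8 tested clock MYB genes under the 13 alternatives kept the direction they had with all 6 arrays. Part of this was fixed in advance, since a changed filter, trend and robust settings and the replicate block cannot alter a gene's group difference. Some of the other values lay near 0, such as -0.09 for LHY without low CO2 replicate 3 and 0.03 for RVE8 without ambient CO2 replicate 3. With no filter, a floor of log2 5, trend and robust settings, quantile normalization, centring or the replicate number as a block, limma called 0 probe sets, as it did with all 6 arrays. Same-numbered arrays did not deviate from their group means together (r = -0.19, 0.02 and -0.20 for numbers 1, 2 and 3 across tested probe sets). These deviations rest on 3 arrays per group, with low CO2 replicate 1 apart from its group. They show no pairing by number but cannot exclude it. Unequal array weights called 8252 of the 16210 tested probe sets. They called 6 of 8 clock MYB genes (RVE5 besides the 5 called without low CO2 replicate 1). Of 34 other clock genes they called 20, near the share over all tested probe sets. These were 2 of 3 pseudo-response regulators, 1 of 1 in the evening complex and 3 of 3 in the GI and ZTL family. The rest were 2 of 4 LNK genes (LNK2 and LNK3), 6 of 9 other regulators and 6 of 14 outputs. These weights ran from 0.183 for low CO2 replicate 1 to 4.165 for low CO2 replicate 2 and came from limma's gene-by-gene method, because its default method stopped before it converged. The weighted fit thus largely sets aside the array that was also left out, so its calls are not separate support. Its p values are likely too small as well. Leaving out single arrays gave 0 to 5723 calls among the 16210 tested probe sets. It gave 0 to 5 among the 8 clock MYB genes and 0 to 10 among the 34 other clock genes. The highest count of other clock genes lies near the share over all tested probe sets, 16.8% higher and 18.5% lower. By list there were 0 to 2 of 3 pseudo-response regulators, 0 to 1 of 1 in the evening complex and 0 to 2 of 3 in the GI and ZTL family. Other regulators and outputs had 0 to 3 of 9 and 0 to 2 of 14. Every count above 0 came from leaving out low CO2 replicate 1. The log2 difference of LNK4 ran from -0.0045 (without ambient CO2 replicate 3) to 0.12 over these omissions, against 0.07 with all arrays.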

Other observations

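CCA1 and LHY, which share the dawn phase, parted within the low CO2 group, a pattern picked out after the values were seen and given with no test. The log2 value of LHY minus that of CCA1 on the same array was 0.60, -0.36 and -1.0 on low CO2 replicates 1, 2 and 3, against 0.41, 0.89 and 0.78 on the ambient CO2 arrays. Since 2 probe sets are involved, only its change between arrays can be read. The array with the lowest value, low CO2 replicate 3, also had the highest values of the evening-expressed genes PRR5 (7.05), TOC1 (6.81), ELF3 (6.46) and GI (8.98), and of GRP7, an RNA-binding protein gene with an evening peak, at 10.13, against 7.82 and 8.49 on low CO2 replicates 1 and 2 and 7.40 to 8.23 on the ambient CO2 arrays. Among the ambient CO2 arrays, replicate 2 had the highest values of CCA1, LHY and GI. Low CO2 replicate 3 also had the highest values of the morning genes CCA1 (10.37), RVE4 (11.14), RVE6 (8.21) and PRR7 (10.48), and it lay farthest from the ambient CO2 arrays over all tested probe sets (r = 0.920 to 0.937). The part of harvest time in these values was not tested.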
